A study of Homo sapiens with 2 samples.

Results

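The cells described here are those A549 cells in which the histone H4 gene HIST1H4C took at least 15 of every 10000 unique molecular identifiers (UMIs) counted in the cell. They numbered 112 of 3836 kept cells: 55 of 1906 in the control library and 57 of 1930 in the squashed library. Kept cells had at least 1000 UMIs and 500 genes, with at most 20% of their UMIs on mitochondrially encoded genes. The members are called histone H4-high cells below, and the 1851 and 1873 remaining kept cells are called the other cells. HIST1H4C was a marker in the rule, so its level was used to choose the cells and supports nothing below. PCNA, TYMS and RRM2, given with it as S phase markers, come from the same cells and are described without a test.

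A549 is a human tumour cell line from a lung adenocarcinoma. The control library was made from cells grown in ordinary 2D culture. The squashed library was made from cells that had been confined under micropillars of polydimethylsiloxane (PDMS). After 48 h of recovery, both arms were sorted for living cells that had lost the signal of ChReporter, a chromosome reporter (about 1 cell per 500), so the controls carry that loss too. There is 1 library per arm and no replicate: every interval below covers counting error only, and a ratio between arms compares 2 libraries, not 2 conditions.

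Replication-dependent histone genes are clustered, mostly on the short arm of chromosome 6, and are expressed in S phase, when new DNA has to be packed into nucleosomes. Core histones H2A, H2B, H3 and H4 form the nucleosome, and linker histones H1 bind the DNA between nucleosomes. Their mRNAs normally end in a stem-loop without a poly(A) tail, whereas this kit primes on poly(A), so a UMI count of such a gene reports only the copies that could be primed. Near-identical histone copies can also share reads, and their separate counts are uncertain. After S phase, cyclin B1 (CCNB1) and its kinase CDK1 drive entry into mitosis.

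The promoters of 3 histone genes and of CDK1 are shown because, among genes of at least 50 counts per 1000000 UMIs (CPM) and apart from HIST1H4C, these stood highest in the histone H4-high cells of both libraries, and that of CCNB1 because its summed level was lower although its product is the partner of CDK1. Each is the 250 bases before the gene's start, 5′ to 3′ on the gene's strand, from RefSeq on GRCh38.p14. Capitals mark matches, on either strand, to 5 motifs. The CCAAT box was searched by the letters in its name. The E2F motif was taken as TTCCCGC, with TTGGCGC accepted in its place. For the CHR element the letters were TTTGAA, and a match to TTCGAA was accepted as well. The H1 box was taken as AAACACA. The TATA box was taken as TATAAA. HIST1H1D lies at chr6:26234988-26235237 on the minus strand, HIST1H1E at chr6:26156079-26156328 on the plus strand and HIST1H3B at chr6:26032100-26032349 on the minus strand. The CDK1 stretch is chr10:60778081-60778330 on the plus strand, the first of 2 entries, and that of CCNB1 is chr5:69166900-69167149 on the plus strand.
HIST1H1D: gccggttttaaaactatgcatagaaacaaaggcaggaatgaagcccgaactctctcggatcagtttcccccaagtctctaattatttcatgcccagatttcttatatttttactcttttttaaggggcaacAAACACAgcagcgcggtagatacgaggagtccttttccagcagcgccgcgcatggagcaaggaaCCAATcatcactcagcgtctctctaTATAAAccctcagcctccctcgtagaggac
HIST1H1E: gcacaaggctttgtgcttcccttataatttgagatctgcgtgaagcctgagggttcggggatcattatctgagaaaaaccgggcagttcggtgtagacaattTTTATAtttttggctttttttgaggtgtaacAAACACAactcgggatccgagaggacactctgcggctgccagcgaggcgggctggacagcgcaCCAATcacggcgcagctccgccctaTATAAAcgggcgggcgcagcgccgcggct
HIST1H3B: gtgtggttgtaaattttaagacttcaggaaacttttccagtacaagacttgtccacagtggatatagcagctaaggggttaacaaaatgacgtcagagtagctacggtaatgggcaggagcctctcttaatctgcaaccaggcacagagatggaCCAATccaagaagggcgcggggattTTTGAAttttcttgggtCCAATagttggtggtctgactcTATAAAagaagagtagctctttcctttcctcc
CDK1: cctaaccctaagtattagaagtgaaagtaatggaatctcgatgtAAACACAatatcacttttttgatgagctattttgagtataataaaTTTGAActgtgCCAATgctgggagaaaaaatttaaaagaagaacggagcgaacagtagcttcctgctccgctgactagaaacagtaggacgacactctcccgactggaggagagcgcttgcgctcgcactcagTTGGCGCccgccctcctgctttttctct
CCNB1: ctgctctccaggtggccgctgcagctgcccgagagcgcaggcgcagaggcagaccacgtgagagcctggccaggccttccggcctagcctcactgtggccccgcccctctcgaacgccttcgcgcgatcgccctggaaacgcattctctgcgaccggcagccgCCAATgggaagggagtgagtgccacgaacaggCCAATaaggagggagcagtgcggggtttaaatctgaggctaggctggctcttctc

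Both linker histone promoters held an H1 box, a CCAAT box and a TATA box. HIST1H3B held CCAAT, CHR and TATA letters, and CDK1 held all but the TATA box. CCNB1 held only CCAAT. Among 27305 promoters of the same length, 33.0% held CCAAT, 7.95% an E2F motif, 14.6% a CHR element, 4.95% an H1 box and 11.1% TATAAA. Of the 15 genes named below as highest in the histone H4-high cells, 11 had a promoter entry: 7 held CCAAT, 4 a CHR element, 4 TATAAA, 3 an H1 box and 1 an E2F motif. Of the 10 named as lowest, 8 had an entry, of which 3 held CCAAT and 0 held any of the other 4 motifs. These matches describe the letters only.

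The histone H4-high cells were 2.89% of kept control cells (exact Clopper-Pearson 95% interval 2.18 to 3.74) and 2.95% of kept squashed cells (2.24 to 3.81). They held 5.26% and 6.50% of the libraries' UMIs but 60.6% and 65.6% of all HIST1H4C UMIs. In the control members HIST1H4C ran from 15.1 per 10000 UMIs through a median of 31.2 to 50.2. In the squashed members it ran from 15.6 through 49.2 to 113, and 20 squashed but 0 control cells reached 60. Just outside the threshold, the highest other cells had 14.4 and 14.6, and the cells between 10 and 15 per 10000 numbered 9 and 25. HIST1H4C was at 0 in 67.5% and 55.7% of kept cells.

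**Figure D1:**
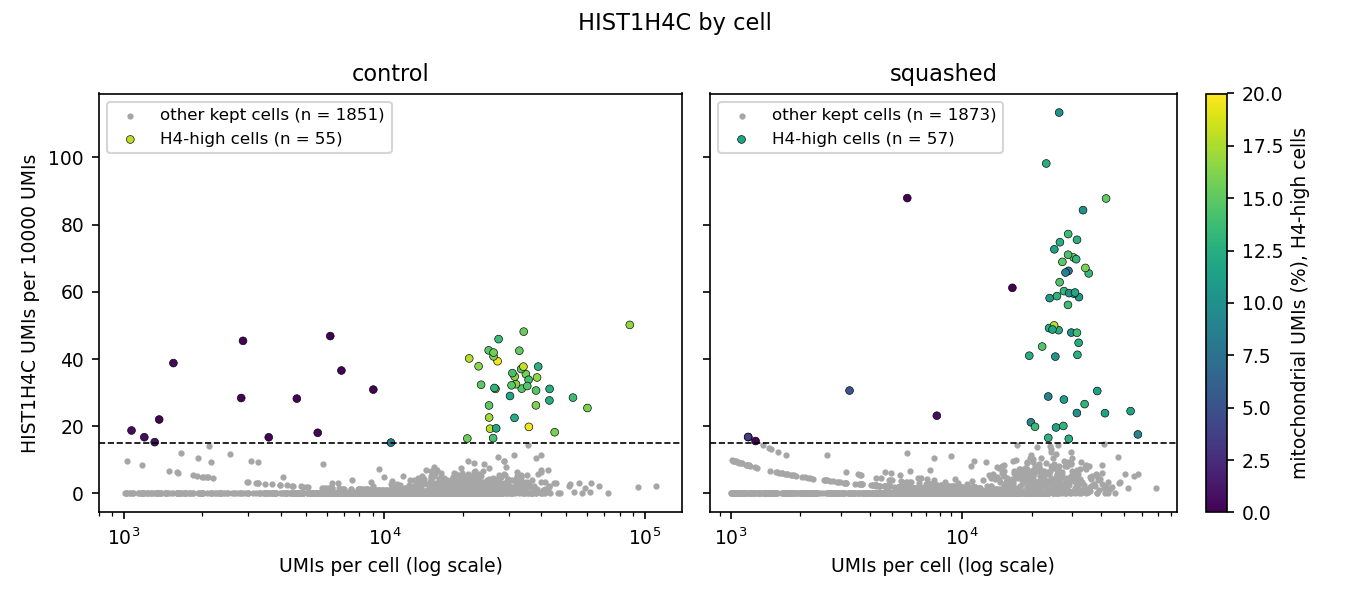
Each point is a kept cell of the control (left) or squashed (right) library, placed by its total UMIs (log axis) and by HIST1H4C per 10000 UMIs, with histone H4-high cells coloured by their mitochondrial share and a dashed line at the threshold of 15. Most histone H4-high cells lie at high UMI totals, and cells at 60 or more per 10000 are seen in the squashed library alone (20 cells).

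Depth and mitochondrial RNA moved with membership, and their part in the results was not tested. The median histone H4-high cell had 26858 UMIs in the control and 27558 in the squashed library, against 12353 and 9167 in the other cells. Its mitochondrially encoded share was 14.7% and 12.2%, against 5.65% and 6.93%. Depth also varied widely among the members. In the control library, 41 of the 55 had more than 10% mitochondrial UMIs and between 20809 and 87533 UMIs, with a median of 107 HIST1H4C UMIs, while the remaining 14 had 1068 to 10587 UMIs and 7 of these had fewer than 10 HIST1H4C UMIs. In the squashed library, 45 of the 57 had more than 10% mitochondrial UMIs and 19523 to 53497 UMIs, with a median of 150 HIST1H4C UMIs, and 3 of the remaining 12 had fewer than 10. Counts of genes by list and the leading genes are therefore also given within cells of at least 20000 UMIs, a cut chosen after seeing the data (the deep subset). There, histone H4-high cells were 41 of 397 control cells (10.3%, interval 7.51 to 13.7) and 48 of 349 squashed cells (13.8%, 10.3 to 17.8), and their mitochondrial share was 15.1% against 11.9% in the other control cells and 12.5% against 10.9% in the other squashed cells.

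Other checks of the cells gave the following. The libraries shared 4 barcodes in all and 2 among kept cells, none of them a histone H4-high cell. A doublet caller marked 16 control and 15 squashed cells, of which 1 and 2 were members. KRT8 and KRT18, keratins of epithelium, were present in the members at 950.2 and 2225 CPM in the control library and 1166 and 718 CPM in the squashed library; the other 3 epithelial markers listed (KRT19, EPCAM, CDH1) did not reach 20 CPM. The summed level of 6 fibroblast markers was 6.23 and 11.9 CPM in the members against 7.91 and 6.01 CPM in the other cells, that of 6 immune markers was 0 and 0.66 CPM, and all 5 endothelial markers were at 0 in the members.

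Against the other cells, the histone H4-high cells carried more mRNA of replication-dependent histones as a family. Among those of at least 50 CPM besides HIST1H4C, linker histone genes HIST1H1D and HIST1H1E and the H3 gene HIST1H3B had the highest ratios. CPM here are summed over all cells of a group, and ratios are log2 ratios of these sums with 0.5 UMI added. Over 71 such genes the summed level was 4606 against 271 CPM in the control library and 6217 against 390 CPM in the squashed library. Without HIST1H4C, which alone made up 70.4% and 82.0% of the members' histone UMIs, the sums were still 1364 against 154 CPM and 1117 against 204 CPM. Of 32 other histone genes with at least 10 UMIs over the members of both libraries, 29 were at least 2-fold higher in the members of each library. Under the same minimum of UMIs, 664 of 10037 genes (6.62%) were. That minimum was reached in the members themselves, so the count is a description.

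HIST1H1D, a linker histone gene of 1 exon at chr6:26234212-26234987 on the minus strand (GRCh38, GENCODE 44), ran from 0 through a median of 4.49 to 19.4 UMIs per 10000 in the control members. In the squashed members it ran from 0 through 2.92 to 14.8, while the median of the other cells was 0 in both libraries. The ranges of single cells overlapped, since some members had no UMI and some other cells had up to 9.79 and 9.70. Its summed level was 495.5 against 8.10 CPM in the control library (log2 ratio 5.93, interval 5.71 to 6.16) and 340.5 against 7.47 CPM in the squashed library (5.51, 5.25 to 5.77). HIST1H1E, a second linker histone gene at chr6:26156329-26157115 on the plus strand, stood at 149 against 5.30 CPM (4.81) and 104 against 3.85 CPM (4.75). HIST1H1C, another one at chr6:26055740-26056470 on the minus strand, was already present in the other cells: 334 against 65.8 CPM (2.35) and 264 against 99.2 CPM (1.41).

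HIST1H3B, an H3 gene at chr6:26031589-26032099 on the minus strand, had the largest ratio among the 15 highest named genes in the control library. It stood at 56.1 against 0.58 CPM there (6.57, interval 5.80 to 7.51) and at 76.5 against 2.34 CPM in the squashed library (5.02, 4.55 to 5.54). HIST1H2AH, a gene for core histone H2A, was at 22.1 against 0.31 CPM and 27.1 against 0.83 CPM. By class, the members' H1 genes summed to 979 CPM in the control library and 708 CPM in the squashed library. Their H2A genes summed to 212 and 139 CPM, H2B to 60.9 and 88.4 CPM, H3 to 70.6 and 97.7 CPM, and H4 to 3285 and 5183 CPM.

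The histone genes did not all follow. HIST1H2AC was at 21.5 against 24.5 CPM in the control library (-0.17) and 30.4 against 27.2 CPM in the squashed library (0.17). HIST1H2BD (-0.41 and -1.21) and HIST1H2BJ (0.26 and -0.08) were the other 2 of the 32 that were not 2-fold higher in both libraries. Replacement histones, which are made outside S phase too, were mostly alike in both sets of cells: 1 of 8 measured genes, H2AFX, was at least 2-fold higher in each library (1.27 and 2.25), whereas H2AFZ stood at -0.01 and 0.47 and H3F3A at 0.46 and 0.31.

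**Figure D2:**
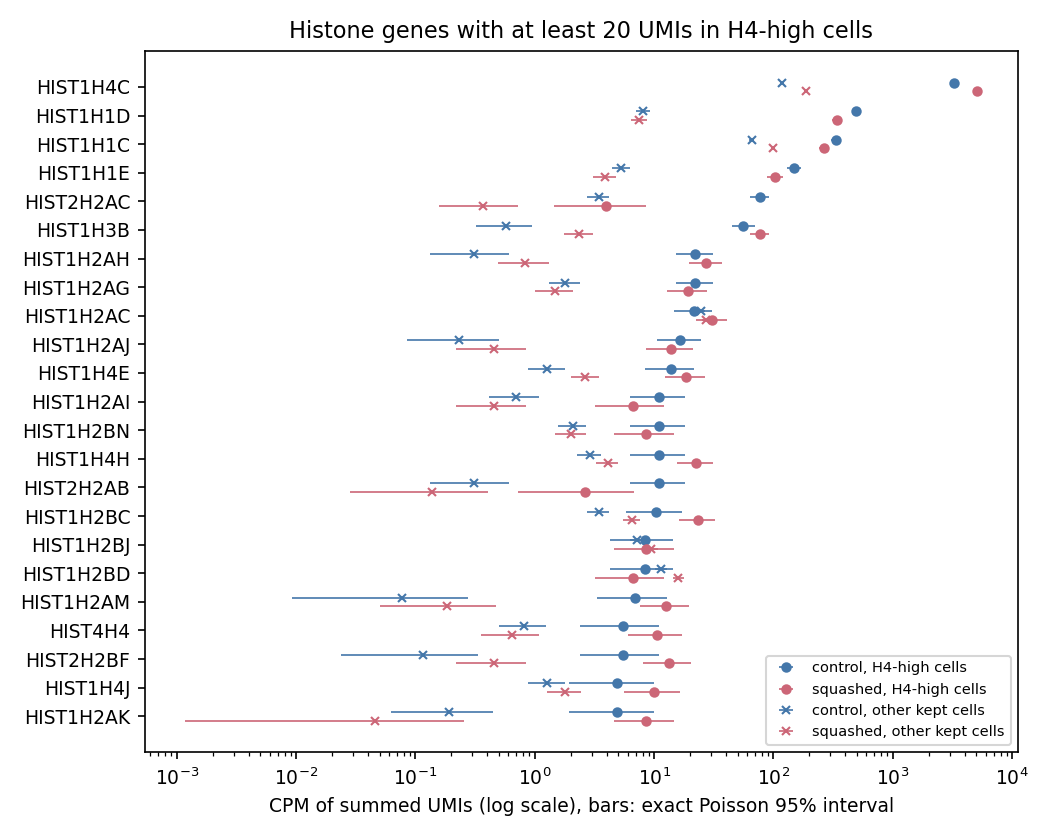
The summed level (CPM, log axis) of each histone gene with at least 20 UMIs in the members is plotted for histone H4-high cells (circles) and other cells (crosses) of each library, with exact Poisson 95% intervals. HIST1H1D (495.5 and 340.5 CPM in members, 8.10 and 7.47 CPM in others) and HIST1H3B are far apart between members and other cells, while HIST1H2AC (21.5 and 24.5 CPM in the control library) is not.

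Beyond the histones, the genes that stood higher included CDK1 and many of DNA replication, its checkpoint and repair, and chromosome condensation, and few genes stood lower. A gene was called when it had at least 20 CPM in either group and differed at least 2-fold. In the control library 480 of 5063 genes (9.48%) were called, of which 451 (8.91%) were higher in the histone H4-high cells and 29 (0.573%) lower. In the squashed library 447 of 4581 (9.76%) were called, 424 (9.26%) higher and 23 (0.502%) lower. In both libraries at once, 223 of 4344 genes (5.13%) were higher and 4 (0.0921%) lower. The median log2 ratio of all genes measured was 0.19 and 0.30. When the libraries' groups were scaled by TMM in place of UMI totals, that median became -0.17 and -0.14, and the calls split into 166 higher and 129 lower in the control library and 130 higher and 120 lower in the squashed library. The ratios of single genes below are thus to be read against the median of 0.19 or 0.30.

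CDK1, the kinase of mitotic entry (chr10:60778331-60794852, plus strand, 8 exons), was the highest of the named genes outside the histones. Per 10000 UMIs it ran from 0 through a median of 2.00 to 11.1 in the control members and from 0 through 2.78 to 8.38 in the squashed members, against a median of 0 in the other cells of both libraries, whose highest cells reached 13.4 and 18.3. Members thus lay above most other cells, but not above all. Its summed level was 233 against 14.6 CPM (3.99, interval 3.78 to 4.21) in the control library and 292 against 26.4 CPM (3.47, 3.29 to 3.65) in the squashed library. Within cells of at least 20000 UMIs the ratios were 3.07 and 2.66.

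UBE2C, the ubiquitin-conjugating enzyme of the anaphase-promoting complex, stood at 354 against 71.6 CPM (2.31) and 250.1 against 63.8 CPM (1.97). ATAD2, a bromodomain protein that binds newly made chromatin, stood at 146 against 27.3 CPM in the control library (2.42), with 2.38 in the squashed library. BRCA1, a repair protein that protects stalled forks, was at 104 against 21.4 CPM (2.28) and 115 against 30.2 CPM (1.93). The remaining genes of the 15 highest were ATAD5, which unloads the PCNA clamp (2.26 and 2.30), ESCO2, which acetylates cohesin in S phase (82.4 against 21.3 CPM, and 2.05 in the squashed library), the spindle protein ASPM (2.14 and 1.87), the proliferation marker MKI67 (1.90 and 1.68), the mitochondrial myosin MYO19 (1.78 and 1.78), the checkpoint mediator CLSPN (1.73 and 2.12), the flap nuclease FEN1 (1.72 and 1.79) and the condensin subunit NCAPD3 (1.70 and 1.70). All 15, the 3 histones and CDK1 included, were still at least 2-fold higher in both libraries within cells of at least 20000 UMIs. In that subset 242 of 5177 genes (4.67%) were higher and 37 (0.715%) lower in the control library, 155 of 4778 (3.24%) higher and 25 (0.523%) lower in the squashed library, and 112 of 4523 (2.48%) higher and 7 (0.155%) lower in both. The medians over all genes were 0.07 and 0.08.

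The 10 lowest genes held 2 regulators of mitosis. PTTG1 encodes securin, which delays the separation of sister chromatids until anaphase. It stood at 223 against 559 CPM in the control library (-1.32, interval -1.49 to -1.17). In the squashed library it stood at 207 against 413 CPM (interval -1.17 to -0.84). CCNB1 stood at 194 against 422 CPM (-1.12, -1.30 to -0.95) and 168 against 326 CPM (-0.96, -1.14 to -0.78). Per cell CCNB1 did not order the groups alike in both libraries: the median member had 1.19 UMIs per 10000 against 3.89 in the median other control cell, but 1.45 against 0.72 in the squashed library. For PTTG1 the medians were 1.52 against 6.68 and 1.60 against 2.30. Within cells of at least 20000 UMIs these ratios shrank to -0.64 and -0.71 for PTTG1 and to -0.42 and -0.88 for CCNB1. The others were CCND1, the cyclin of G1 (-0.92 and -0.80), the ribosomal protein gene RPL31 (-1.05 and -0.99), the nuclear genes of mitochondrial proteins ROMO1 (-0.96 and -1.05), HIGD2A (-0.91 and -1.33), VDAC1 (-0.91 and -0.98) and COX4I1 (-0.80 and -0.81), and LRRC75A (-0.91 and -0.86) and CYSTM1 (-0.78 and -0.90). None of the 10 was 2-fold lower in either library within cells of at least 20000 UMIs. Of the 10 genes that were lowest in that subset by the same ranking, 3 were shared (CCND1, PTTG1, LRRC75A).

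NEAT1, the nuclear RNA that scaffolds paraspeckles, had lower sums in the histone H4-high cells but not lower medians. Per 10000 UMIs the median member had 5.29 in the control and 4.42 in the squashed library, against 0.64 and 0 in the median other cell, whose highest cells reached 532 and 303. Summed over all kept cells it stood at 763 against 1659 CPM in the control library (-1.12) and 667 against 945 CPM in the squashed library (-0.50). Within cells of at least 20000 UMIs it stood at 775 against 2616 CPM (-1.76) and 666 against 1619 CPM (-1.28). It was most abundant in cells with a little HIST1H4C: in the control library it was at 247 CPM in cells with none, 3533 CPM in cells with more than 0 and less than 5 per 10000, and 693 CPM in cells with 30 or more.

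**Figure D3:**
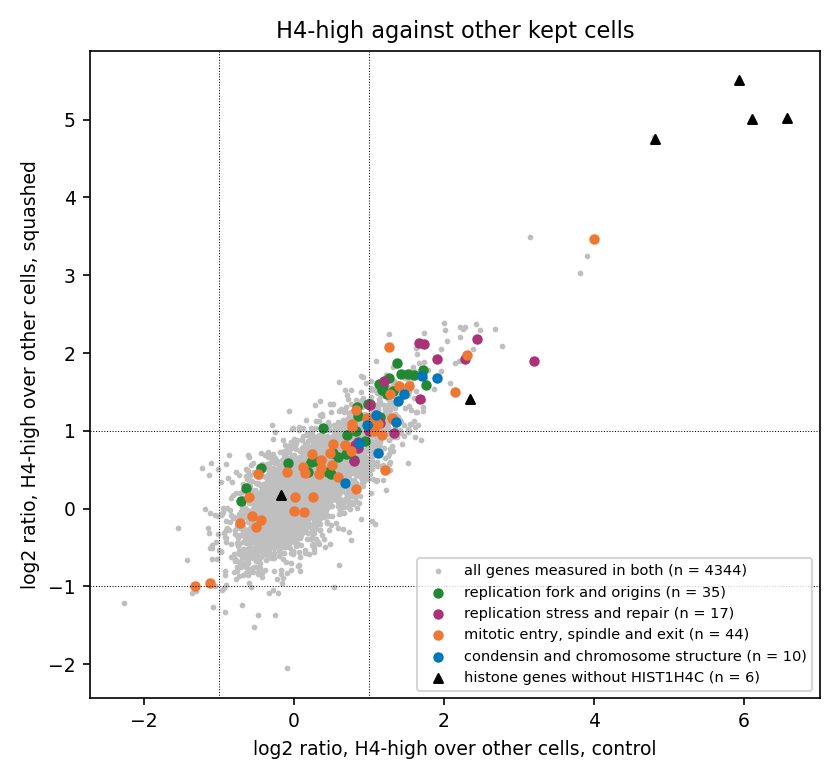
Each point is a gene measured in both libraries (n = 4344), placed by its log2 ratio of histone H4-high to other cells in the control (x axis) and squashed library (y axis); colours mark 4 gene lists, triangles mark histone genes other than HIST1H4C, and dotted lines mark 2-fold. HIST1H3B (6.57 and 5.02), HIST1H1D (5.93 and 5.51) and CDK1 (3.99 and 3.47) lie far from the rest at the upper right.

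Genes of the replication machinery were higher, but by less than the histones. Of 51 listed genes of origins and forks, 39 were measured, of which 19 were at least 2-fold higher and 0 lower in the control library (background 8.91%), with a median of 0.98. In the squashed library 22 of 39 were higher and 0 lower (background 9.26%), with a median of 1.17. PCNA, the sliding clamp, ran from 0 through 3.36 to 15.3 UMIs per 10000 in the control members against a median of 1.42 in the other cells, whose highest cell had 41.3, so the groups overlapped. Its summed level was 391 against 195 CPM (1.01) in the control library and 313 against 145 CPM (1.11) in the squashed library, and it fell short of 2-fold within cells of at least 20000 UMIs (0.89 and 0.83). POLD3, a subunit of DNA polymerase delta, stood at 58.1 against 17.3 CPM (1.76) and 56.1 against 18.7 CPM (1.59), the helicase component CDC45 at 1.53 and 1.73, and the fork protein WDHD1 at 1.61 and 1.72. Within cells of at least 20000 UMIs 19 of 39 and 19 of 40 measured fork genes were 2-fold higher, with medians of 0.90 and 0.95 (background 4.67% and 3.24%).

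Of 18 measured genes that make DNA's building blocks, 4 were 2-fold higher in the control library (median 0.71, background 8.91%). In the squashed library 5 were (median 0.75, background 9.26%), with 0 lower in both. Within cells of at least 20000 UMIs 6 and 4 of 18 were (medians 0.85 and 0.63, background 4.67% and 3.24%). RRM2, the regulated subunit of ribonucleotide reductase, stood at 129 against 63.5 CPM (1.02) and 126 against 52.9 CPM (1.26). TYMS, thymidylate synthase, stood at 57.4 against 36.5 CPM (0.66) and 89.1 against 49.2 CPM (0.86), so 1 of the 3 S phase markers besides HIST1H4C was under 2-fold in both libraries. DUT, which removes dUTP, was at 1.75 and 1.78, and RRM1, the large subunit of the reductase, at 1.21 and 1.11.

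Genes of the response to stalled forks and of repair by recombination were 2-fold higher for 12 of 17 measured genes (median 1.20) in the control library and for 12 of 18 (median 1.37) in the squashed library, with 0 lower, and within cells of at least 20000 UMIs for 11 of 18 (median 1.32) and 10 of 19 (median 1.12). BRCA2, a protein of recombination repair, stood at 51.9 against 5.68 CPM (3.20) and 29.7 against 8.07 CPM (1.89). BARD1, the partner of BRCA1, stood at 2.44 and 2.18, the helicase BLM at 1.91 and 1.93, and the nuclease EXO1 at 2.12 and 2.91. Cohesin genes, which hold sister chromatids together, were 2-fold higher for 5 of 12 (median 0.83) and 3 of 10 (median 0.88). Within cells of at least 20000 UMIs only 2 of 11 and 1 of 10 were (medians 0.76 and 0.57). For both lists the background was 8.91% and 9.26%, and 4.67% and 3.24% in that subset. The cohesin counts of that subset were too small to be set apart from it. Among genes that maintain heterochromatin behind the fork, the remodeler HELLS stood at 161 against 38.3 CPM (2.08) and 165 against 54.0 CPM (1.61).

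Counts for the proteins that receive and carry new histones, and for those that make histone mRNA, were too small to be set apart from the shares over all genes (8.91% and 9.26%). Of the chaperone and assembly genes 2 of 13 were 2-fold higher in the control library (median 0.40) and 1 of 12 in the squashed library (median 0.57), and within cells of at least 20000 UMIs 2 of 13 and 0 of 12 were (medians 0.22 and 0.33). CHAF1A, the large subunit of chromatin assembly factor 1, was at 1.28 and 1.38, the H1 and H3 chaperone NASP at 0.79 and 0.88, and NPM1, nucleophosmin, at -0.98 and -0.55. Of the genes that make and process histone mRNA, 2 of 10 (median 0.36) and 1 of 9 (median 0.45) were 2-fold higher, and within cells of at least 20000 UMIs 0 of 10 and 1 of 9. CASP8AP2, a protein of the histone locus body, was at 1.73 and 1.88, and SLBP, which binds the stem-loop, at 24.2 against 9.41 CPM (1.38) and 18.5 against 9.95 CPM (0.92).

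Genes of chromosome condensation and of mitosis were 2-fold higher in numbers that depended on which cells were compared. Of the condensin list 8 of 11 were 2-fold higher in the control library (median 1.36) and 7 of 10 in the squashed library (median 1.16), with NCAPH at 1.47 and 1.47. In the deep subset 10 of 11 (median 1.40) and 5 of 10 (median 0.94) were. Among cells with at most 10% mitochondrial UMIs, where 14 control members remained, the control median of this list was -0.23 and CENPF, named below, stood at -0.47. Those 14 members held 58590 UMIs in all, so both values rest on few counts. TOP2A, the topoisomerase that untangles replicated DNA, ran from 0 through 7.34 to 22.0 UMIs per 10000 in the control members and from 0 through 9.79 to 46.8 in the squashed members, against medians of 0.73 and 0.93 in the other cells. Its summed level was 822 against 315 CPM and 1127 against 434 CPM (1.38 in both libraries). Of the genes of mitotic entry, spindle and exit, 14 of 45 were 2-fold higher and 2 lower in the control library (median 0.59), and 15 of 44 higher and 0 lower in the squashed library (median 0.66). In that deep subset 24 of 44 (median 1.08) and 10 of 44 (median 0.66) were higher and 0 lower. For both lists the background of higher genes was 8.91% and 9.26%, and 4.67% and 3.24% in the deep subset. The kinetochore protein CENPF stood at 762 against 173 CPM (2.14) and 585 against 206 CPM in the squashed library, and the spindle checkpoint kinase TTK at 1.53 and 1.57. PLK1, a kinase of mitosis, stood at 0.51 and 0.56 (1.11 and 0.66 within cells of at least 20000 UMIs), and AURKA at -0.59 and 0.16. CDC20, the activator of anaphase, stood at -0.72 and -0.19 (-0.01 and 0.13 within cells of at least 20000 UMIs).

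Of other lists, 1 of 7 genes for G1 cyclins and inhibitors of cyclin-dependent kinases was 2-fold higher in the control library and 0 of 6 in the squashed library. CDKN1A, the p21 inhibitor, stood at -0.03 and 0.43, and at -0.84 and -0.23 within cells of at least 20000 UMIs. CDKN1B, p27, stood at 0.71 and 1.14. In the squashed library it was under 20 CPM, with a UMI in 14 of 57 members. Immediate early genes, which respond quickly to stimulation or handling, were 2-fold higher for 4 of 5 and 4 of 6 over all kept cells. Within cells of at least 20000 UMIs only 1 of 6 was in each library. The background of higher genes was 8.91% and 9.26%, and 4.67% and 3.24% in that subset. A count of 1 gene in these short lists cannot be set apart from it. IER3 was at 1.22 and 1.28 over all kept cells. Of the glycolysis genes 0 of 11 and 0 of 12, and of the unfolded protein response genes 0 of 11 and 0 of 8, differed 2-fold. The 13 mitochondrially encoded genes had a median of 0.60 and 0.34 with 0 called, and 82 ribosomal protein genes had a median of -0.32 and -0.31 with 1 lower in the control library and 0 in the squashed library.

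Cell cycle calls depended on how they were scored. Among cells of at least 2000 UMIs, scoring on log values called 9 of 50 control members S, 40 G2/M and 1 G1, and 15 of 54 squashed members S (27.8%), 39 G2/M (72.2%) and 0 G1. Scoring on values standardized per gene, a choice made after seeing the data, called 19 control members S and 30 G2/M, and 29 squashed members S (53.7%) and 25 G2/M (46.3%). The other cells were called S in 3.04% and 4.63% on log values, and in 21.7% and 23.6% on standardized values. They were called G2/M in 60.2% and 47.0% on log values, and in 42.0% and 31.0% on standardized values. Both scorings thus put a larger share of the members than of the other cells in S and also in G2/M. Almost no members were called G1. Neither scoring put nearly all of the members in S, and the label S phase is used here only with that limit. Free RNA in the droplets can enter such calls, and its part was not tested.

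The histone H4-high cells were also set beside the other cells by their call on log values. The members' summed G1/S list was near or above that of other S-called cells. Their summed G2/M list was near that of other G2/M-called cells. The calls were scored on these same lists, so each class standing high on its own list was fixed in advance. The members' sums pool S-called, G2/M-called and uncalled cells, and cannot show that single cells carried both lists. The G1/S list summed to 2643 CPM in the control members, against 2661 CPM in other S-called, 1572 CPM in other G2/M-called and 539 CPM in other G1-called cells. The G2/M list summed to 10054 CPM in the members, against 3350, 10631 and 1152 CPM in those 3 classes. In the squashed library the G1/S list stood at 2767 CPM against 2171, 1597 and 490.4 CPM, and the G2/M list at 10422 CPM against 3527, 10457 and 1455 CPM. CDK1 was higher in the members than in each class: 233 CPM against 43.1, 20.9 and 3.63 CPM in the control library, and 292 CPM against 27.2, 44.9 and 6.25 CPM in the squashed library. CCNB1 was not: 194 CPM in the control members lay between 120 CPM in S-called and 741 CPM in G2/M-called cells, and 168 CPM in the squashed members lay between 97.3 and 639 CPM. CDK1 and CCNB1 mRNA, whose products act as a pair, were thus at unlike ratios in the members and in the G2/M-called cells. The classes differed in depth, with median UMIs of 26858 in the control members and 18139, 11923 and 15031 in the 3 classes.

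Among the histone H4-high cells themselves, CDC6 and MCM6 were lower, and HIST1H3B, HIST1H1D and HIST1H1E higher, in the cells with the most HIST1H4C than in those nearer the threshold. These bins use the HIST1H4C value that chose the cells, so the levels are a description. In the control library CDC6, which loads the replicative helicase, was at 67.4 CPM in the 23 cells of 15 to 30 per 10000 (exact Poisson interval 47.0 to 93.8) and at 28.1 CPM in the 32 cells of 30 or more (18.3 to 41.1). In the squashed library it was at 82.1 CPM in 17 cells (57.2 to 114) and 39.5 CPM in 40 cells (28.6 to 53.2). MCM6, a subunit of that helicase, was at 73.2 and 32.4 CPM in the control bins and at 101 and 64.3 CPM in the squashed bins. MCM3, another subunit, was not lower in the upper control bin (71.3 and 73.4 CPM; 117 and 78.0 CPM in the squashed bins). CCNE1, cyclin E1 of the G1/S transition, rested on few UMIs: 5 in the lower control bin and 1 in the upper, and 9 and 4 in the squashed bins, or 21.1 CPM (9.66 to 40.1) against 3.67 CPM (1.00 to 9.40) in the squashed library. CCNE2, cyclin E2, had 4 UMIs in the lower control bin and 0 in the upper, where 3 UMIs would be 3.24 CPM, and 5 and 1 in the squashed bins. PCNA was at 572 and 289 CPM in the control bins and at 357 and 296 CPM in the squashed bins.

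HIST1H3B ran the other way, with 34.7 CPM (20.6 to 54.8) in the lower and 68.0 CPM (52.3 to 87.1) in the upper control bin, and 18.8 CPM (8.10 to 37.0) and 99.1 CPM (81.3 to 120) in the squashed bins. HIST1H1D was at 412 and 542 CPM in the control bins and at 91.5 and 438 CPM in the squashed bins, and HIST1H1E at 98.3 and 177 CPM and at 23.5 and 135 CPM. The lower bin held 23 control and 17 squashed cells, so these steps rest on few cells. Across all kept cells, CDK1 stood at 6.35 CPM in control cells without HIST1H4C and at 293 CPM in those of 10 to 15 per 10000, just under the threshold, and at 11.9 and 158 CPM in the squashed library. CCNB1 was highest in cells without HIST1H4C, at 624 CPM (control) and 400.5 CPM (squashed). CCNE2 was near its floor in cells without HIST1H4C, at 0.14 and 0.54 CPM, and reached 5.53 and 11.1 CPM in cells of 10 to 15 per 10000, the first of which is 1 UMI.

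**Figure D4:**
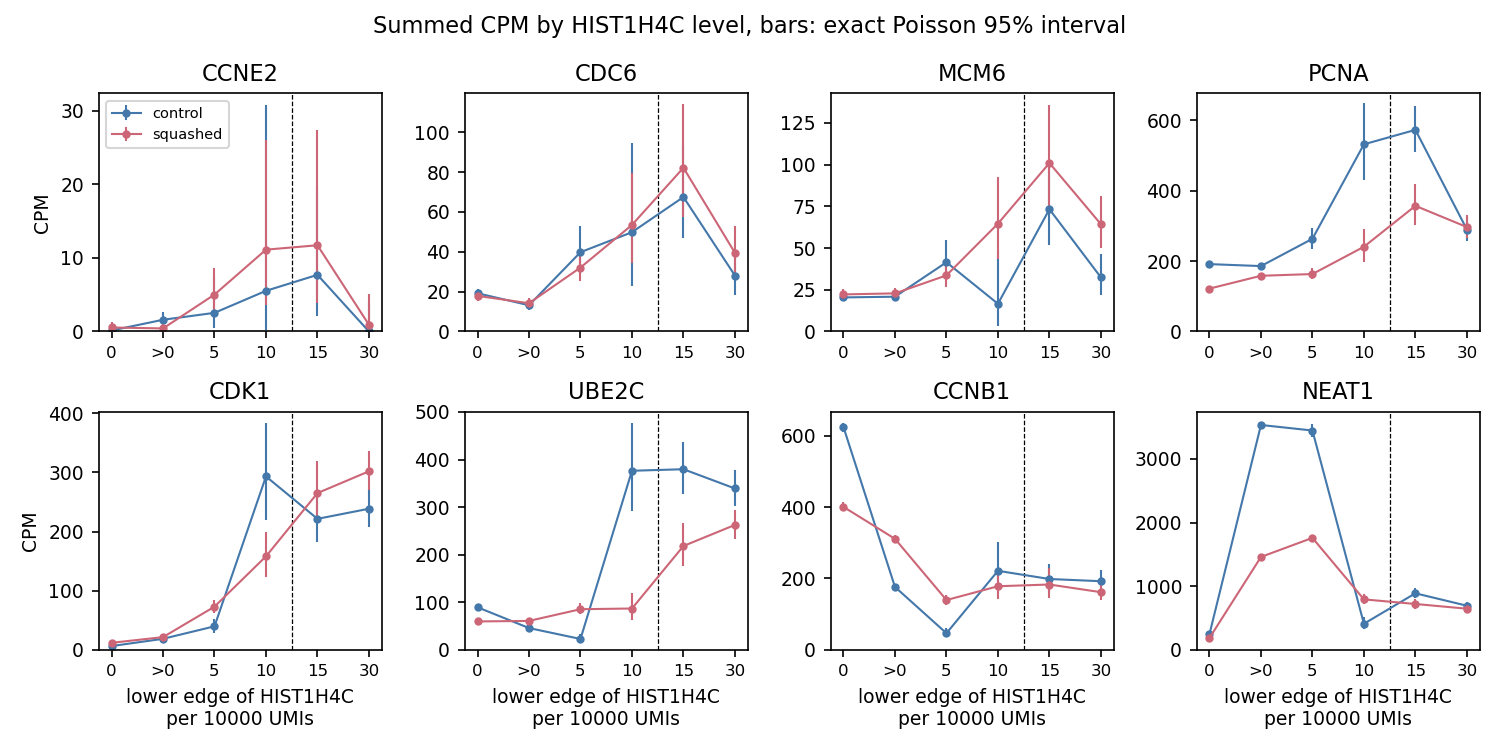
The summed level (CPM) of 8 genes is plotted for kept cells grouped by HIST1H4C per 10000 UMIs, in the control and squashed libraries, with exact Poisson 95% intervals and a dashed line where the histone H4-high cells begin. CDC6 is at 67.4 and 28.1 CPM in the upper 2 bins of the control library, and CCNB1 is at 624 CPM in control cells without HIST1H4C.

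Squashed against control within the histone H4-high cells, few genes of the cell cycle lists differed 2-fold, while a set of single genes differed by several-fold both in the members and in the other cells. The share of cells above the threshold was 2.89% and 2.95%, with overlapping intervals. How the shares compared depended on the cells kept. The control and squashed shares were 3.07% and 4.65% among cells of at least 5000 UMIs and 1500 genes. After thinning to 2000 UMIs they were 3.45% and 4.66%. With at most 10% mitochondrial UMIs they were 1.03% and 0.910%. HIST1H4C was higher in the squashed members (5099.6 against 3242 CPM, 0.65), and by the same ratio in the other cells (0.67). Over all kept cells its level was 281 CPM in the control cells and 505 CPM under the squashed label. Relative to that level, a threshold of 15 was lower in the squashed library. What lay behind the higher level was not tested. With a squashed threshold raised by the ratio of these levels to 26.9 per 10000, the squashed share was 2.18%. This choice was made after seeing the data. The levels include the members, which held 60.6% and 65.6% of these UMIs, so the scaling is not independent of the rule. Of 5179 genes measured, 455 (8.79%) were called: 119 (2.3%) were at least 2-fold higher and 336 (6.49%) lower in the squashed members, with a median of -0.07 over all genes. Under TMM scaling 154 were higher and 222 lower, and the median was 0.05. In the other cells 270 of 4255 (6.35%) were called, 45 (1.06%) higher and 225 (5.29%) lower. Within cells of at least 20000 UMIs, 131 of 5220 (2.51%) were higher and 347 (6.65%) lower in the members, and 57 of 4772 (1.19%) higher and 189 (3.96%) lower in the other cells.

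Of the histone genes, HIST2H2AC, an H2A gene at chr1:149886918-149887411 on the plus strand, was nearly missing from the squashed library. It ran from 0 through 0.48 to 6.99 UMIs per 10000 in the control members and from 0 through 0 to 0.61 in the squashed members. The summed level was 3.96 CPM (6 UMIs) in the squashed and 76.8 CPM (111 UMIs) in the control members (-4.17, interval -5.76 to -3.11), and the other cells, at 0.37 and 3.42 CPM, gave -3.14. The 3 linker histone genes were lower within 2-fold: HIST1H1D at -0.54, HIST1H1E at -0.52 and HIST1H1C at -0.34. HIST1H4H (1.00) and HIST1H2BC (1.13) were higher, at 22.4 against 11.1 CPM and 23.1 against 10.4 CPM.

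The other lowest genes were PPDPF (17.2 against 208 CPM, -3.57), the mitochondrial ribosomal protein gene MRPL12 (11.2 against 102 CPM, -3.14), DDT, D-dopachrome tautomerase (25.1 against 189 CPM, -2.90), the liver X receptor NR1H2 (-2.71), MRPL34 (12.5 against 72.7 CPM), the acyl carrier protein NDUFAB1 (-2.40), PDCD6 (-2.39), EGFL7 (-2.36) and ceruloplasmin, CP (-2.29). For the first 3 of these the other cells gave -3.06, -3.63 and -2.92. The highest were TRIML2 (83.8 against 11.1 CPM, 2.88), the small nucleolar RNA host genes SNHG9 (2.81) and SNHG19 (1.76), PRR34-AS1 (2.56), AC010624.5 (2.37), the ATP synthase subunit ATP5ME (532 against 106 CPM, 2.33), SMIM4 (2.14), PEG10 (2.00), the myristoyltransferase NMT1 (1.94) and the respiratory subunit NDUFB1 (1.92). In the other cells TRIML2 gave 1.93, ATP5ME 1.92 and NDUFB1 1.84. For AC010624.5, 1 cell held 50% of the UMIs in the control members. Counting in the source is not stated to use strand here. Whether reads of PRR34-AS1 were kept apart from those of an overlapping partner was not checked.

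**Figure D5:**
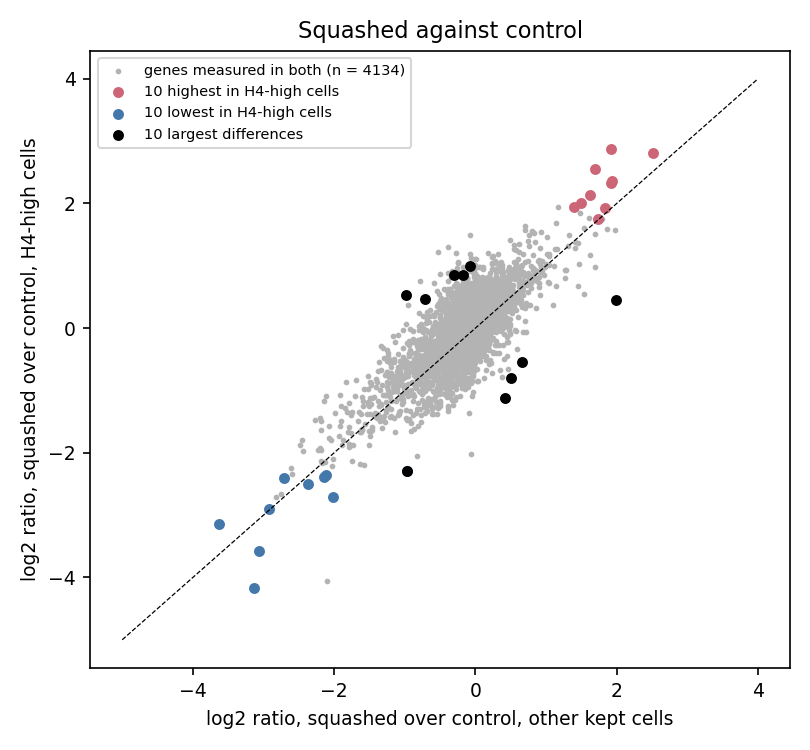
Each grey point is a gene measured in both sets of cells and each coloured or black point a named gene, placed by its log2 ratio of the squashed to the control library in the other cells (x axis) and in the histone H4-high cells (y axis), with equal ratios on the dashed line. PPDPF, MRPL12 and DDT are low on both axes, as is HIST2H2AC, which did not reach 20 CPM in the other cells, and TRIML2 and ATP5ME high on both.

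By list, 1 of 43 fork and origin genes was 2-fold higher in the squashed members and 3 were lower (median 0.22). Those counts were near the shares over all genes (2.3% higher and 6.49% lower). POLE3, a subunit of DNA polymerase epsilon, stood at 145 against 68.5 CPM (1.08). POLD1, the catalytic subunit of polymerase delta, stood at 5.28 against 21.5 CPM (-1.96, interval -3.36 to -0.87), the nuclease subunit RNASEH2A at -1.24 and the licensing factor CDT1 at -1.08. 0 of 52 measured G2/M phase genes (median -0.13), of 45 genes of mitotic entry, spindle and exit (median -0.19) and of 33 G1/S phase genes (median 0.07) differed 2-fold, against 2.3% higher and 6.49% lower over all genes. Of the building-block genes 2 of 17 were lower, too few to be set apart from the 6.49% over all genes. They were DTYMK, thymidylate kinase (-1.20, with -1.79 in the other cells) and GMPS, GMP synthase (-1.60, with -1.32).

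Of genes of the unfolded protein response, 3 of 11 were lower in the squashed members (median -0.74), and 4 of 10 in the other cells (median -0.52). Over all genes 2.3% were higher and 6.49% lower in the members, and 1.06% and 5.29% in the other cells. The lists of this paragraph are short, and their counts are to be read beside these shares. MANF, a secreted factor of the endoplasmic reticulum, stood at -1.49, HERPUD1 at -1.86 and the chaperone CALR at 190.0 against 484 CPM (-1.35). Metallothioneins, which bind metal ions, gave 1 of 3 higher in the members (median 0.99) and 3 of 3 in the other cells (median 1.69). Of the G1 genes CDKN1A stood at 125 against 60.9 CPM (1.04) and CCND1 at 60.7 against 142 CPM (-1.22, with -1.34 in the other cells). Immediate early genes had 2 of 7 lower, IER3 at 41.6 against 183 CPM (-2.13) and JUND at -1.13. KRT18 stood at -1.63 in the members and -1.61 in the other cells.

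By the difference of log2 ratios, the squashed to control ratio of many genes differed between the members and the other cells beyond counting error. That error leaves out the spread between single cells. Of 4134 genes measured in both sets, 1005 (24.3%) had a counting interval of the difference that left out 0, and 53 of these differed by at least 1. Of genes with at least 50 CPM in the members, the highest differences were FN1, fibronectin (1.52, interval 1.17 to 1.87), AOPEP (1.17), PYCR1 (1.16), PSMD6 (1.07) and the kinetochore protein SPC25 (1.03). The lowest were HIST1H3B (-1.54, interval -2.46 to -0.63), GACAT2 (-1.54), CP (-1.32), BRCA2 (-1.30) and LOXL2 (-1.19). FN1 stood at 114 against 78.9 CPM in the members and at 80.4 against 159.7 CPM in the other cells, and 1 cell held 27.2% of its UMIs in the squashed members. HIST1H3B was higher in the squashed library in both sets, by 0.45 in the members and 1.99 in the other cells, where its control level was 0.58 CPM. With 1 library per arm, no test of these differences between conditions can be made.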

How the data were processed

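Single-cell RNA was measured in 1 control and 1 squashed library, grouped by the treatment label. The deposited values are whole-number counts of UMIs per gene and barcode without normalization, per the file headers. They were made with the 10x Chromium 3.1 kit and a NovaSeq 6000, per the labels' design text. Cell Ranger (5.0.1 per the labels' design text, 4.0.0 per the file headers) counted them on 10x's GRCh38 reference. Per the submitters' processing notes R 4.3.2 was used, for a step not given.

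Kept cells held 27482392 control and 23328323 squashed UMIs. Counts were summed over the cells of a group and scaled to CPM, counts per 1000000 UMIs (Python 3.11.15 with scanpy 1.11.5, scipy 1.17.1, numpy 2.4.6, pandas 2.3.3). A prior count of 0.5 was added for log2 ratios, whose intervals are exact binomial, or Wald for a difference of ratios. Doublets were called with Scrublet and left in. The scripts were tested on simulated data. Alternatives included edgeR 4.0.16's TMM scaling. The members and gene lists were chosen with earlier results of these data known. Named genes were the 15 highest and 10 lowest by the smaller ratio of the 2 libraries, the 10 highest and lowest between libraries and the 5 highest and lowest differences (at least 50 CPM, without mitochondrial genes and, in the first, HIST1H4C), up to 4 genes of each list, the markers, and histone genes of at least 20 CPM.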

Additional observations from a re-analysis of the deposited data

Results flagged for a closer look

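Barcodes left out by the filters also held HIST1H4C at or above 15 per 10000 UMIs: 20 of 668 in the control library and 18 of 1202 in the squashed library. Of those with more than 20% mitochondrial UMIs, 2 of 270 and 1 of 519 were that high. The remaining 18 and 17 were mostly barcodes of fewer than 500 genes (17 and 17), with 1 to 3 HIST1H4C UMIs in 17 and 16 of them and median totals of 588 and 820 UMIs.

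Only the genes named for the 5 highest and 5 lowest differences were searched here, a set picked for its large differences. Of these, 7 stood above the other cells in 1 library and below them in the other. Each of the 7 had a counting interval of the difference that left out 0. By the squashed minus control log2 ratio of members to other cells they were FN1 (1.52), AOPEP (1.17), PYCR1 (1.16), PSMD6 (1.07), GACAT2 (-1.54), CP (-1.32) and LOXL2 (-1.19). With 1 library per arm these differences were not tested between conditions. A single cell held 27.2% of the FN1 UMIs in the squashed members, 29.3% of the GACAT2 UMIs in the control members and 29.5% of the CP UMIs in the control members. Within cells of at least 20000 UMIs, FN1 stood at -1.30 in the control and -0.13 in the squashed library.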

How the results depend on the processing

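The share of histone H4-high cells (2.89% control, 2.95% squashed) was 3.36% and 4.25% at a threshold of 10 per 10000, and 1.68% and 2.07% at 30. It was 3.07% and 4.65% among cells of at least 5000 UMIs and 1500 genes, and 3.45% and 4.66% after thinning to 2000 UMIs. The squashed share was 2.18% with the squashed threshold scaled to 26.9. With at most 10% mitochondrial UMIs the shares were 1.03% and 0.910%, where 14 and 12 members remained. The counts of 2-fold genes (480 in the control and 447 in the squashed library for members against other cells, 455 between libraries) became 1941, 1652 and 2362 with at most 10% mitochondrial UMIs, 1776, 1690 and 1745 after thinning, 829, 944 and 745 for means of each cell's CPM, and 2922, 2961 and 1369 without the CPM filter. The first 2 became 295 and 250 under TMM scaling and 279 and 180 in cells of at least 20000 UMIs, and the squashed count 268 at 5000 UMIs and 1500 genes. With at most 10% mitochondrial UMIs the members held 58590 control and 194793 squashed UMIs, against 1444937 and 1515600 in the main groups. After thinning each cell had 2000 UMIs. Ratios on so few UMIs have a wide counting error, so the larger counts under these settings cannot be read as more genes differing. Reversed values were GACAT2 between libraries (0.11 at a threshold of 30); in the control library the condensin list (-0.23), CENPF (-0.47) and SMC2 (-0.36), and between libraries CDKN1A (-0.0074), with at most 10% mitochondrial UMIs; and FN1 (control, 0.010), GACAT2 (squashed, 0.077) and JUND (between libraries, 0.13) after thinning. The cause was not tested. Under TMM scaling all 73 control, 67 squashed and 43 between-library named genes called 2-fold kept their sign, and 54, 47 and 42 were still 2-fold. Not counted here were 355 values of named genes resting on 3 UMIs or fewer in a member group, of which 32 had the opposite sign. No paired analysis was possible because each arm is 1 library without a replicate, and for the same reason no replicate could be left out.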
